A study of Mus musculus with 12 samples.

Results

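The genes described here are the 47 listed enzymes and enzyme subunits of amino acid breakdown, followed in a table of 53715 mouse genes across hepatoblasts, Diff. hepatocytes and mature hepatocytes. They were listed by name without a filter on their values, though earlier results of these data were known. All 47 symbols were found among the gene identifiers, and all 47 were among the 17779 genes that had more than 10 counts in any library and were tested. Every group came from C57BL/6JOlaHsd mice, with 4 biological replicates each and no transgene or deletion named. Hepatoblasts are the fetal progenitors of hepatocytes and bile duct cells. They were taken at E14.5 by magnetic sorting on the surface protein Dlk1, from pooled embryonic livers, and lysed directly. Diff. hepatocytes were hepatoblasts of the same kind kept for 4 days in MCDB131 medium with serum, L-glutamine, insulin-transferrin-selenium, dexamethasone and Matrigel, on fibronectin. Mature hepatocytes came by collagenase perfusion from males of 8 to 12 weeks and were lysed directly. Age, sex and method of isolation therefore cannot be told apart in comparisons with this group. Against Diff. hepatocytes, culture cannot be told apart from these either. The sex of the embryos is not given in the sources used here.

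The liver takes up most amino acids that reach it from the gut and removes their nitrogen, which enters the urea cycle, while the carbon skeletons go to glucose, ketone bodies or the citrate cycle. Aminotransferases and dehydratases take off the amino group, and dedicated chains of dioxygenases, dehydrogenases and carboxylases break down the skeleton. Several of the enzymes, among them tryptophan dioxygenase and serine dehydratase, are textbook markers of the adult liver, appear around or after birth, and respond to glucocorticoids, glucagon or dietary protein.

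The libraries held 19581551 to 25216977 reads assigned to genes. Hepatocyte markers were abundant in every group, with summed levels of 5 genes from 36305 to 155650 CPM (counts scaled to a common library size, with TMM factors, edgeR's trimmed mean of M-values). Dlk1 and Afp together stood at 30041 to 50685 CPM in hepatoblasts, 16053 to 20507 CPM in the Diff. hepatocytes and 35.2 to 64.5 CPM in mature hepatocytes. One library of each embryonic group stood apart. Hepatoblast replicate 1 had 2419 CPM of 8 erythroid genes against 296 to 482 CPM in the other replicates, and 258 CPM of 7 macrophage genes against 63.1 to 69.0 CPM. This library held the lowest hepatoblast value for 37 of the 47 genes. Diff. hepatocyte replicate 1 had 2522 CPM of 6 mesenchymal genes against 1015 to 1670 CPM, 213 CPM of 5 bile duct genes against at most 93.5 CPM, and 125 CPM of 7 macrophage genes against 20.7 to 64.2 CPM. It held the lowest Diff. hepatocyte value for 41 of the 47 genes. No marker gene of these lists was at 0 in a whole group, except the erythroid gene Epb42 in mature hepatocytes. In such bulk samples, fewer hepatocytes in a preparation and less RNA of a gene per hepatocyte cannot be told apart. The part of these other cells in the results was not tested, and counts without both libraries are given beside the main ones.

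Most of the 47 genes were higher in mature hepatocytes than in hepatoblasts, and fewer of them were higher in the cultured cells. Calls required an adjusted p below 0.01 together with a log2 fold change beyond 1 in either direction (edgeR's quasi-likelihood test over all tested genes, Benjamini-Hochberg adjustment). In mature hepatocytes 34 members were called higher than in hepatoblasts and 0 were called lower, when 20.1% of all tested genes were called higher and 24.7% lower. By edgeR with the adjusted p alone below 0.05, and by DESeq2, the number lower was also 0, and 2 members were lower at an unadjusted p under 0.05. Diff. hepatocytes had 21 members called higher and 6 called lower than hepatoblasts, beside 14.9% and 14.0% of all genes. Compared with mature hepatocytes, 34 members were called lower in Diff. hepatocytes and 1, Bcat1, was called higher, beside 15.6% and 20.2% of all genes. The comparisons share libraries, so their counts are not independent of each other.

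Across the 47 genes, log2 fold changes had a median of 0.63 in Diff. hepatocytes against hepatoblasts, 2.38 in mature hepatocytes against hepatoblasts and −1.56 in Diff. hepatocytes against mature hepatocytes. Over all tested genes the medians were −0.01, −0.15 and 0.09. With genes at or under 3 counts per library set at their bound, the first of these was 0.61 and the others did not move. When library totals took the place of TMM factors, the median of all genes shifted to −0.34, −1.0003 and 0.62 in the same order. The counts were then 19 higher and 6 lower, 28 higher and 3 lower, and 2 higher and 24 lower, beside 11.2% and 20.4%, 11.3% and 44.5%, and 30.9% and 9.99% of all genes. Under glmTreat, which tests against the fold change threshold itself, 16 members were higher and 4 lower in culture, 31 and 0 in mature hepatocytes, and 1 and 25 in Diff. against mature hepatocytes, beside 8.6% and 8.08%, 14.9% and 17.4%, and 13.3% and 10.4% of all genes. The calls lost in culture were Tdo2, Amdhd1, Ftcd, Shmt1, Agxt2, Bcat1 and Aldh6a1. By the adjusted p alone, below 0.05, the counts were 26 and 11, 41 and 0, and 2 and 43, beside 29.3% and 30.4%, 33.4% and 39.0%, and 34.2% and 30.9%. Without hepatoblast replicate 1 and Diff. hepatocyte replicate 1 the counts were 21 and 6, 33 and 0, and 1 and 32. Of the 17412 genes tested there, 2601 and 2464, 3630 and 4296, and 3506 and 2746 were called. The values of all genes by library show the members in pathway order.

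**Figure D1:**
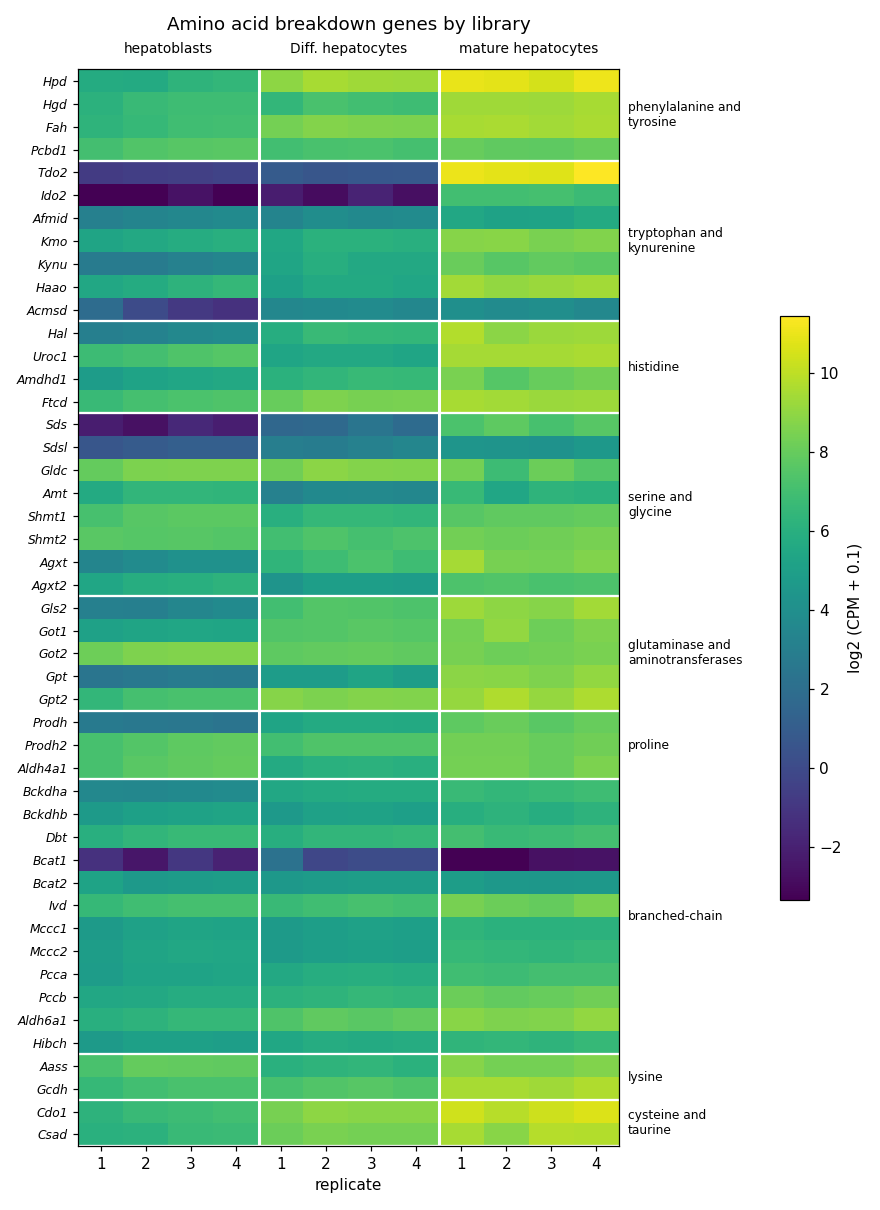
Expression of the 47 amino acid breakdown genes in each of the 12 libraries, as log2 of CPM plus 0.1, with genes in rows by pathway and replicates in columns by group. Most genes are brightest in the 4 mature hepatocyte libraries; Tdo2 and Ido2 are dark in both embryonic groups, Sds is darkest in hepatoblasts, and Bcat1 is dark in the mature hepatocytes.

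**Figure D2:**
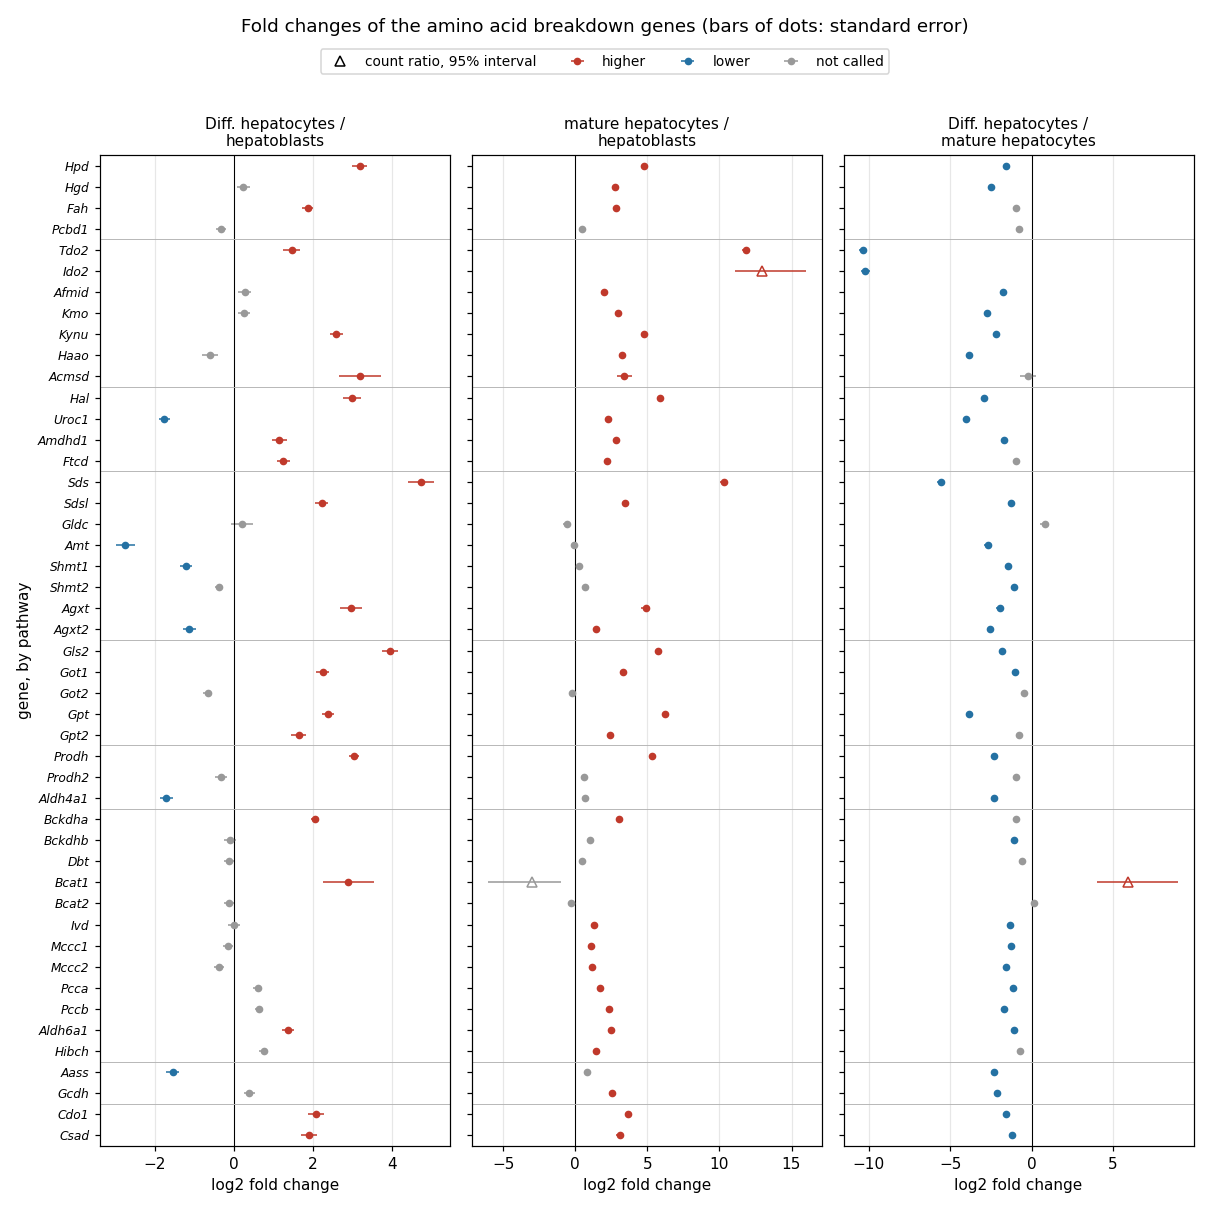
Log2 fold changes of the 47 genes in the 3 comparisons, with dots for the fitted value and bars for its standard error, colored by call. Open triangles give the ratio of summed counts with its exact 95% interval where all libraries of a group held 3 counts or fewer, and Ido2 is left out of the first panel because both embryonic groups were near that limit. In the middle panel 34 genes are called higher and 0 lower.

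Histidine breakdown was split in culture. Its 4 enzymes are Hal, which removes ammonia to give urocanate, Uroc1, which hydrates urocanate, Amdhd1, which opens the imidazolone ring, and Ftcd, which passes the formimino group to folate. Against hepatoblasts, 4 of 4 rose in mature hepatocytes, where 20.1% of all tested genes were called higher. In Diff. hepatocytes Hal, Amdhd1 and Ftcd rose and Uroc1 fell, beside 14.9% of all tested genes called higher and 14.0% lower. Sequences from RefSeq (GRCm38.p6) of the 250 bases before each start site are shown because these genes act in 1 chain and moved in opposite directions in culture. Capitals mark matches, on either strand, to a motif of HNF1 with the letters GTTAAT, to the C/EBP motif TTGCNNAA, to the HNF4 motif CAAAGTCCA, to the TATA box TATAAA, or to the palindromic element of the glucocorticoid receptor. No matches overlapped in these windows. Hal lies on the plus strand (promoter at chr10:93488518-93488767), Uroc1 on the plus strand (chr6:90333039-90333288), Amdhd1 on the minus strand (chr10:93540034-93540283) and Ftcd on the plus strand (chr10:76575398-76575647).
Hal: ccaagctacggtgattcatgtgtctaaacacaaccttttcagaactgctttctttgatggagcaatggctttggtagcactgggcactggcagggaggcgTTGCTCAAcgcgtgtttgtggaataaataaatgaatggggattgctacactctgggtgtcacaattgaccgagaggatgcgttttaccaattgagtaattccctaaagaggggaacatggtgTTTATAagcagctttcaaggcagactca
Uroc1: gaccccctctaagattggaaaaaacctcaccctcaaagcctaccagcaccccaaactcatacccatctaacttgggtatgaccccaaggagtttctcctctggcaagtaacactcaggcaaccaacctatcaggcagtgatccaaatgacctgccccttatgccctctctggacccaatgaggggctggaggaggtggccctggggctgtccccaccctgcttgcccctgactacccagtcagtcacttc
Amdhd1: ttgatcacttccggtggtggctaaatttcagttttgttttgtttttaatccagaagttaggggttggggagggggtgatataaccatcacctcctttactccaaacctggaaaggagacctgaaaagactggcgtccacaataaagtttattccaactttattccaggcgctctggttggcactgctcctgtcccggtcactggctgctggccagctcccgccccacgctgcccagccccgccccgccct
Ftcd: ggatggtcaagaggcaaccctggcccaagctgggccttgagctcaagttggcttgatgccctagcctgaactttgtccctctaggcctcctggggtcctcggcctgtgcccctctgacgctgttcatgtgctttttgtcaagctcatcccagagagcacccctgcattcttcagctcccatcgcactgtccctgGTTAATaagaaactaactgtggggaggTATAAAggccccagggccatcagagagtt
In the Hal sequence the capitals are a C/EBP match from −150 to −143 and a TATA box match on the minus strand from −28 to −23, counted from the start site. The Ftcd sequence holds an HNF1 match from −56 to −51 and a TATA box match from −29 to −24. The windows of Uroc1 and Amdhd1 hold none of these letters. Hal and Amdhd1 are neighbors that point toward each other, at chr10:93488768-93519304 and chr10:93523338-93540033.

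Across the set, 39 of the 47 genes had an entry in the promoter table, with 46 start sites. The HNF1 motif stood in 13.0% of the members' promoters and 6.43% of all promoters of this length, the HNF4 motif in 4.35% and 0.384% (2 start sites of 1 gene, Agxt2), the TATA box in 19.6% and 12.4%, and the C/EBP motif in 10.9% and 9.56%. The glucocorticoid receptor element was in 0 of the 46 members' promoters and in 0.387% of all. The median GC content was 53.6% in the members and 52.4% overall. The shares describe these windows, and the matched letters are not shown to be bound.

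Hal stood at 8.26, 9.23, 11.9 and 13.8 CPM in the 4 hepatoblast libraries, at 60.1, 103, 90.0 and 86.7 CPM in the Diff. hepatocytes and at 849, 478, 611 and 635 CPM in mature hepatocytes. The groups formed 3 separate steps without overlap, with a log2 fold change of 2.98 ± 0.22 (SE) in culture and 5.90 ± 0.25 in mature hepatocytes, both against hepatoblasts. Uroc1 instead dropped from 110.5, 131, 169 and 192 CPM in hepatoblasts to 40.9, 48.5, 47.6 and 41.5 CPM in the Diff. hepatocytes, and stood at 719, 698, 695 and 766 CPM in mature hepatocytes. It was called lower in culture (log2 fold change −1.75 ± 0.15, edgeR adjusted p = 4.59e-07) and higher in mature hepatocytes (2.26 ± 0.15, adjusted p = 1.72e-08), and against mature hepatocytes the Diff. hepatocytes were 16.1-fold lower. Uroc1 lies at chr6:90333284-90364551 of GRCm38. Amdhd1 had 39.4 ± 8.40, 87.3 ± 12.7 and 277 ± 71.2 CPM (SD, n = 4) and Ftcd 141 ± 27.8, 334 ± 52.8 and 659 ± 54.5 CPM in hepatoblasts, Diff. hepatocytes and mature hepatocytes. Their rises in culture were small, at 2.22-fold and 2.38-fold, and both calls were lost with library totals (log2 fold changes 0.84 and 0.94). Per kilobase of exon, Uroc1 had the lowest mean of the 4 transcripts in Diff. hepatocytes, at 12.9 ± 1.15 CPM per kb. Hal was close to it, at 15.3 ± 3.27 CPM per kb, within their spread, and Amdhd1 and Ftcd stood at 36.1 ± 5.25 and 105 ± 16.5. This order was not tested.

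**Figure D3:**
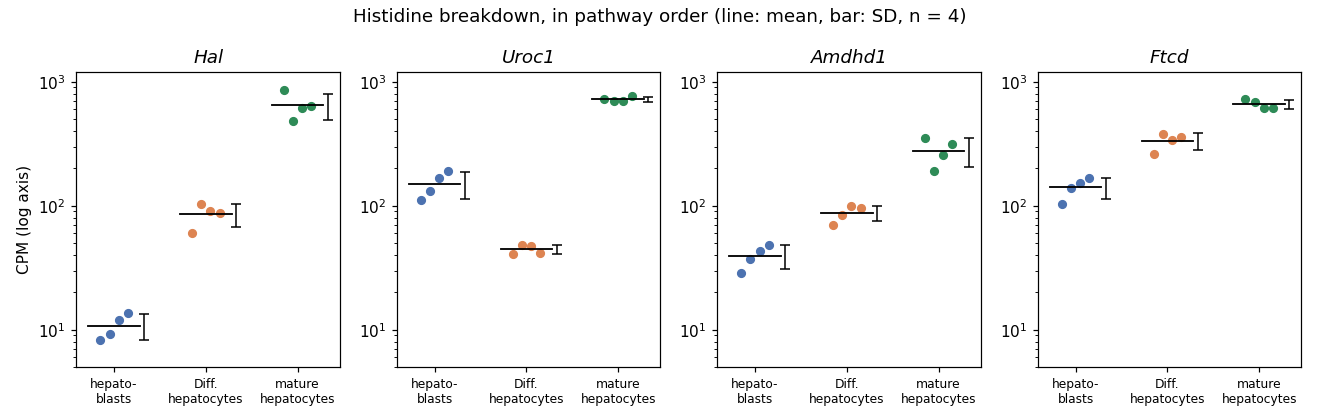
CPM of Hal, Uroc1, Amdhd1 and Ftcd by group on a log axis, with 1 point per library, a line at the mean and a bar for the SD (n = 4). Hal, Amdhd1 and Ftcd step up from hepatoblasts to Diff. hepatocytes to mature hepatocytes, whereas all 4 Diff. hepatocyte points of Uroc1, from 40.9 to 48.5 CPM, lie under the hepatoblast points.

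Tryptophan breakdown held the largest gaps between cultured and mature cells among the 47 genes. Tdo2 and Ido2 oxidize tryptophan to formylkynurenine, Afmid removes the formyl group, and Kmo, Kynu and Haao lead on toward quinolinate and NAD, from which Acmsd diverts carbon to full oxidation. All 7 genes were called higher in mature hepatocytes than in hepatoblasts, beside 20.1% of all tested genes. In Diff. hepatocytes 3 were called higher than in hepatoblasts, beside 14.9% of all tested genes. In the same cells 6 were called lower than in mature hepatocytes, beside 15.6%.

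Tdo2 (chr3:81957090-81976202, minus strand) had 0.484, 0.567, 0.583 and 0.696 CPM in hepatoblasts and 1.77, 1.42, 1.55 and 1.68 CPM in the Diff. hepatocytes, against 2062, 1873, 1718 and 2804 CPM in mature hepatocytes. The rise in culture was called (log2 fold change 1.46 ± 0.22, edgeR adjusted p = 7.99e-05), yet Diff. hepatocytes stayed 1313-fold under mature hepatocytes (−10.36 ± 0.21, adjusted p = 1.27e-12). Ido2, the second enzyme of this step (chr8:24531892-24576333), had 2 counts in hepatoblasts and 9 in Diff. hepatocytes over 4 libraries each, and 7955 counts in mature hepatocytes. The ratio of mature hepatocytes to hepatoblasts was 7876, with an exact 95% interval for counting error only of 2180 to 65048, and the ratio to Diff. hepatocytes was 1243 (654 to 2719). No fold is given between the embryonic groups, where 7 of 8 libraries had 3 counts or fewer. Per kilobase of exon, mature hepatocytes held more Tdo2 than Ido2, at 545 ± 124 and 34.5 ± 3.25 CPM per kb.

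Further down the chain the cultured cells were closer to the adult level. Kynu, which cleaves kynurenines, rose from 8.33 ± 1.73 to 50.0 ± 8.28 CPM in culture and stood at 226 ± 31.3 CPM in mature hepatocytes. Acmsd had 3.68, 0.925, 0.453 and 0.331 CPM in hepatoblasts, 11.2, 12.7, 14.1 and 11.4 CPM in the Diff. hepatocytes and 16.3, 13.7, 15.8 and 11.6 CPM in mature hepatocytes. The highest hepatoblast value was that of replicate 1, without which the rise in culture was 4.41 on the log2 scale instead of 3.19 ± 0.53. Cultured and mature cells overlapped for Acmsd (log2 fold change −0.21 ± 0.47, edgeR adjusted p = 0.705, and 0.31 with library totals). Kmo and Afmid did not pass the test in culture, at 0.25 ± 0.16 and 0.28 ± 0.16, and both turned slightly negative with library totals (−0.06 and −0.04). Haao had 66.7 ± 19.9 CPM in hepatoblasts, 43.9 ± 7.72 CPM in the Diff. hepatocytes and 623 ± 63.3 CPM in mature hepatocytes, and was called lower in the cultured than in the mature cells by 14.2-fold. Afmid shares 38.8% of its 75-base sequences with a readthrough gene on the same strand, so its counts are less certain.

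In phenylalanine and tyrosine breakdown, Hpd and Fah rose in culture and the other 2 members, Hgd and Pcbd1, were not called. Hpd, the dioxygenase that makes homogentisate (chr5:123171807-123182727), had 54.4, 53.2, 77.0 and 89.4 CPM in hepatoblasts, 492, 721, 642 and 615 CPM in the Diff. hepatocytes and 2005, 1829, 1458 and 2168 CPM in mature hepatocytes. The log2 fold change in culture was 3.17 ± 0.20 (edgeR adjusted p = 2.99e-08), and per kilobase Hpd was the most abundant of the 47 transcripts in both Diff. hepatocytes (290.2 ± 44.6 CPM per kb) and mature hepatocytes (876 ± 143 CPM per kb). Fah, the hydrolase that ends the chain, went from 104 ± 21.1 to 379 ± 34.7 CPM in culture and to 738 ± 47.2 CPM in mature hepatocytes. Hgd, which acts between them, was at 102 ± 21.4 CPM in hepatoblasts and 120 ± 25.5 CPM in the Diff. hepatocytes, not different by the test (log2 fold change 0.24 ± 0.17, −0.07 with library totals), and at 670 ± 45.8 CPM in mature hepatocytes. Pcbd1, which recycles tetrahydrobiopterin, led the set in hepatoblasts at 215 ± 40.8 CPM per kb and was called in none of the 3 comparisons.

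Serine and glycine breakdown divided by enzyme. The dehydratases Sds and Sdsl, which turn serine into pyruvate, and Agxt, which converts glyoxylate to glycine, rose in culture. Amt, Shmt1 and Agxt2 fell, while Gldc did not pass the test and Shmt2 was lower by less than the fold change threshold (log2 fold change −0.38 ± 0.10, edgeR adjusted p = 0.00541). Mature hepatocytes had 4 of the 8 genes called higher than in hepatoblasts, 0 were called lower, and 7 were called higher than in Diff. hepatocytes. The shares of all tested genes called in these 3 ways were 20.1%, 24.7% and 15.6%. With library totals Gldc was called lower than in hepatoblasts (log2 fold change −1.46) and Agxt2 was no longer called there. Diff. hepatocytes then had 1 of these genes called higher and 4 lower than mature hepatocytes, beside 30.9% and 9.99% of all genes.

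Sds (chr5:120476526-120483932) had 4, 2, 7 and 4 counts in the hepatoblast libraries, 69, 74, 117 and 71 counts in Diff. hepatocytes and 2246, 3482, 2439 and 3152 counts in mature hepatocytes. As CPM these means were 0.137 ± 0.0686, 3.72 ± 1.01 and 179 ± 37.5, with log2 fold changes of 4.72 ± 0.33 in culture and 10.31 ± 0.30 in mature hepatocytes. The levels again formed 3 separate steps, with the cultured cells 48.1-fold under the mature cells. Sdsl, the neighboring gene in the opposite orientation, went from 1.86 ± 0.331 to 8.66 ± 1.66 and 20.7 ± 2.11 CPM. Part of the exons of Sds (21.3%) lies opposite Plbd2, which matters only if reads were counted without strand.

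The glycine cleavage system, which splits glycine in mitochondria into carbon dioxide, ammonia and a folate-bound carbon, was uneven in culture. Amt, its aminomethyltransferase (chr9:108296853-108302302), had 52.0, 85.6, 84.2 and 82.8 CPM in hepatoblasts, 9.08, 13.0, 12.2 and 11.2 CPM in the Diff. hepatocytes and 97.3, 43.2, 76.7 and 70.3 CPM in mature hepatocytes. It had the largest fall of the set in culture (log2 fold change −2.74 ± 0.24, edgeR adjusted p = 4.52e-07), while hepatoblasts and mature hepatocytes overlapped (−0.08 ± 0.22, adjusted p = 0.744). Gldc, the decarboxylase of the same system, stood at 346 ± 66.6 CPM in hepatoblasts, 399.7 ± 68.3 CPM in the Diff. hepatocytes and 227 ± 97.8 CPM in mature hepatocytes, and was called in no comparison with TMM factors, while with library totals it was lower in mature hepatocytes than in both other groups (log2 fold change 1.35 for Diff. against mature hepatocytes). Outside the 47 genes, the hydrogen carrier gene Gcsh was lower in Diff. hepatocytes than in hepatoblasts (−1.34 ± 0.12) and mature hepatocytes (−1.36 ± 0.12), and Dld, the shared dehydrogenase, was not called in any. Shmt1, the cytosolic hydroxymethyltransferase, had 191 ± 33.4, 82.3 ± 13.7 and 226 ± 23.3 CPM in hepatoblasts, Diff. hepatocytes and mature hepatocytes.

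Agxt and Agxt2, aminotransferases that use glyoxylate, moved apart in culture. Agxt rose 7.75-fold from 14.9 ± 3.33 to 116 ± 30.4 CPM, and stood at 705, 344, 329 and 395 CPM in mature hepatocytes. Agxt2 (chr15:10358532-10410153) dropped from 43.0, 58.2, 65.0 and 74.9 CPM to 20.1, 31.0, 30.6 and 28.9 CPM in culture, against 162, 172, 148 and 159 CPM in mature hepatocytes. Like Uroc1, Agxt2 was called lower in Diff. hepatocytes (log2 fold change −1.12 ± 0.16) and higher in mature hepatocytes (1.41 ± 0.16, 0.58 with library totals), and these were the only 2 members called in opposite directions against hepatoblasts. Without Diff. hepatocyte replicate 1 the fall of Agxt2 was −0.996 and was no longer called.

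The glutaminase and the aminotransferases of glutamate rose in culture in 4 of 5 genes, when 14.9% of all tested genes were called higher. Gls2, the liver-type glutaminase (chr10:128194457-128210004), had 8.67, 8.12, 11.1 and 13.5 CPM in hepatoblasts, 126, 182, 171 and 161 CPM in the Diff. hepatocytes and 617, 494, 438 and 679 CPM in mature hepatocytes. Its log2 fold change in culture, 3.95 ± 0.20 (edgeR adjusted p = 5.03e-09), was the largest among members with at least 10 CPM in the higher group, and 5.75 ± 0.22 separated mature hepatocytes from hepatoblasts. Got1, the cytosolic aspartate aminotransferase, rose 4.75-fold in culture, from 39.4 ± 3.65 to 187 ± 12.1 CPM. Its mitochondrial counterpart Got2 was not called, at 371 ± 54.4 CPM in hepatoblasts, 235 ± 13.8 CPM in the Diff. hepatocytes and 324 ± 27.4 CPM in mature hepatocytes. With library totals Got2 was called lower in mature hepatocytes than in hepatoblasts (log2 fold change −1.04), and 12.2% of its 75-base sequences occur in a pseudogene. Gpt, the cytosolic alanine aminotransferase, went from 5.29, 5.94, 6.93 and 6.46 CPM in hepatoblasts to 29.1, 28.6, 40.1 and 30.1 CPM in the Diff. hepatocytes and 477, 455, 387 and 541 CPM in mature hepatocytes. Mitochondrial Gpt2 began far higher, at 131 ± 28.4 CPM, and reached 406 ± 29.3 and 682 ± 155 CPM.

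Proline breakdown had 1 gene up and 1 down in culture. Prodh, the proline dehydrogenase, rose from 6.84, 5.94, 5.73 and 5.04 CPM to 38.7, 51.3, 52.5 and 50.2 CPM in culture, and stood at 222, 269, 204 and 255 CPM in mature hepatocytes. Aldh4a1 (chr4:139622866-139649690), which carries out the following step for proline and hydroxyproline alike, dropped from 142, 205, 231 and 249.7 CPM to 52.5, 66.0, 71.2 and 64.5 CPM, with 325, 323, 261 and 379 CPM in mature hepatocytes. The cultured cells lay under both other groups without overlap (log2 fold changes −1.70 ± 0.17 and −2.34 ± 0.17). Prodh2, the hydroxyproline dehydrogenase, was not called, at 196 ± 41.5, 157 ± 21.6 and 301 ± 27.7 CPM. Aldh4a1 shares 28.7% of its 75-base sequences with a readthrough gene on the same strand, which itself had 62 counts over 12 libraries.

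In branched-chain amino acid breakdown, 3 of 12 genes were called higher and 0 lower in culture, where 14.9% of all genes were called higher. By the adjusted p alone, below 0.05 in the edgeR fit, 6 were higher and 1 was lower, beside 29.3% and 30.4% of all genes. Against hepatoblasts, 8 of the 12 were called higher in mature hepatocytes, beside 20.1% of all genes. With library totals 3 of the 12 were called higher there and Bcat2 was called lower (log2 fold change −1.15), beside 11.3% and 44.5% of all genes. The count in this group therefore depended on the scaling. The calls lost were Ivd, Mccc1, Mccc2, Pcca and Hibch. Bckdha, the alpha subunit of the decarboxylase that commits branched-chain keto acids to oxidation, rose from 11.8, 11.3, 12.9 and 13.7 CPM in hepatoblasts to 46.1, 51.6, 53.9 and 54.0 CPM in the Diff. hepatocytes and 104, 88.7, 97.8 and 117 CPM in mature hepatocytes. Its partner subunit Bckdhb and the acyltransferase core Dbt were not called in culture (−0.10 ± 0.15 and −0.11 ± 0.15). For Bckdha, 61.7% of the exon length lies opposite B3gnt8, which had 582 counts over 12 libraries against 12584 of Bckdha. Aldh6a1, the methylmalonate semialdehyde dehydrogenase of valine breakdown, rose 2.57-fold in culture. Ivd, the leucine pathway's dehydrogenase, had 123 ± 20.3 and 123 ± 16.6 CPM in hepatoblasts and Diff. hepatocytes and 308 ± 53.4 CPM in mature hepatocytes. Pccb, a subunit of propionyl-CoA carboxylase, had 52.4 ± 5.91, 81.2 ± 7.43 and 269 ± 26.7 CPM.

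Bcat1, the cytosolic branched-chain aminotransferase of fetal and proliferating tissues, was the 1 member called higher in the cultured than in the mature cells. It had 10, 3, 13 and 5 counts in hepatoblasts, 109, 18, 22 and 20 counts in Diff. hepatocytes and 0, 0, 1 and 1 counts in mature hepatocytes. The ratio of Diff. hepatocytes to mature hepatocytes was 60.1 (exact 95% interval for counting error 16.4 to 500.3). Without Diff. hepatocyte replicate 1, the library with more mesenchymal, bile duct and macrophage RNA, it was 28.8 (7.64 to 243). In culture against hepatoblasts the log2 fold change of 2.88 ± 0.65 became 1.86 without that library. Bcat2, the mitochondrial form, stood at 30.0 ± 5.19, 27.8 ± 3.06 and 24.7 ± 3.34 CPM and was not called.

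In lysine breakdown, Aass, the bifunctional synthase that starts the pathway (chr6:23072173-23132986), had 147, 248, 236 and 233 CPM in hepatoblasts, 66.8, 76.9, 83.5 and 68.6 CPM in the Diff. hepatocytes and 440.3, 326, 327 and 400.2 CPM in mature hepatocytes. It was called lower in culture (log2 fold change −1.55 ± 0.16), whereas Gcdh, the glutaryl-CoA dehydrogenase further down, was not (0.39 ± 0.14). Both were called lower in Diff. hepatocytes than in mature hepatocytes, at −2.34 ± 0.17 and −2.14 ± 0.15. The 2 cysteine and taurine genes were called higher in culture and higher again in mature hepatocytes, but for Csad the second difference lost its call with library totals (log2 fold change −0.64 for Diff. against mature hepatocytes) and with glmTreat. Cdo1, the cysteine dioxygenase, had 104 ± 20.9 CPM in hepatoblasts, 439 ± 63.8 CPM in the Diff. hepatocytes and 1291 ± 295 CPM in mature hepatocytes, and Csad, which decarboxylates its product toward taurine, had 87.3 ± 20.3, 324 ± 31.7 and 735 ± 197 CPM. Per kilobase, Cdo1 came after Hpd in both Diff. hepatocytes (267 ± 38.8 CPM per kb) and mature hepatocytes (786 ± 179 CPM per kb).

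Summed per kilobase of exon, the 47 transcripts amounted to 969, 1251, 1410 and 1468 CPM per kb in hepatoblasts, 1730, 2253, 2204 and 2116 CPM per kb in Diff. hepatocytes and 6964, 6064, 5872 and 7415 CPM per kb in mature hepatocytes. These sums, scaled with TMM factors, did not overlap between groups. Before division by length and without scaling, the 47 transcripts took 0.505% ± 0.0552, 0.614% ± 0.0588 and 1.39% ± 0.0675 of the counts of a library (SD, n = 4). By this share hepatoblasts and Diff. hepatocytes overlapped. The pathway sums differed in pattern. Cysteine and taurine genes summed to 63.4 to 103, 286 to 397 and 682 to 1228 CPM per kb (lowest to highest), and glutaminase and aminotransferase genes to 121 ± 18.3, 251 ± 14.0 and 657 ± 94.1 CPM per kb, each rising in both steps. Tryptophan genes summed to 30.3 ± 6.77 CPM per kb in hepatoblasts and 39.2 ± 5.99 CPM per kb in Diff. hepatocytes, with overlapping libraries, against 854 ± 131 CPM per kb in mature hepatocytes. Serine and glycine genes had 228 ± 29.8, 224 ± 36.2 and 657 ± 110.3 CPM per kb. Proline and lysine genes were lower on average in Diff. hepatocytes (82.9 ± 11.1 and 80.8 ± 9.51 CPM per kb) than in hepatoblasts (123 ± 26.3 and 103 ± 20.2 CPM per kb). Without scaling or division by length, serine and glycine genes took 0.115% ± 0.00953 of counts in hepatoblasts and 0.119% ± 0.0133 in mature hepatocytes. Proline genes took 0.0531% ± 0.00802 and 0.0624% ± 0.00659, and the other pathways differed more. Histidine and branched-chain genes took 0.0443% ± 0.00682 and 0.0733% ± 0.00549 in hepatoblasts. In Diff. hepatocytes they took 0.0577% ± 0.00792 and 0.0813% ± 0.00736, with overlapping SDs. These sums and shares are descriptions and were not tested.

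**Figure D4:**
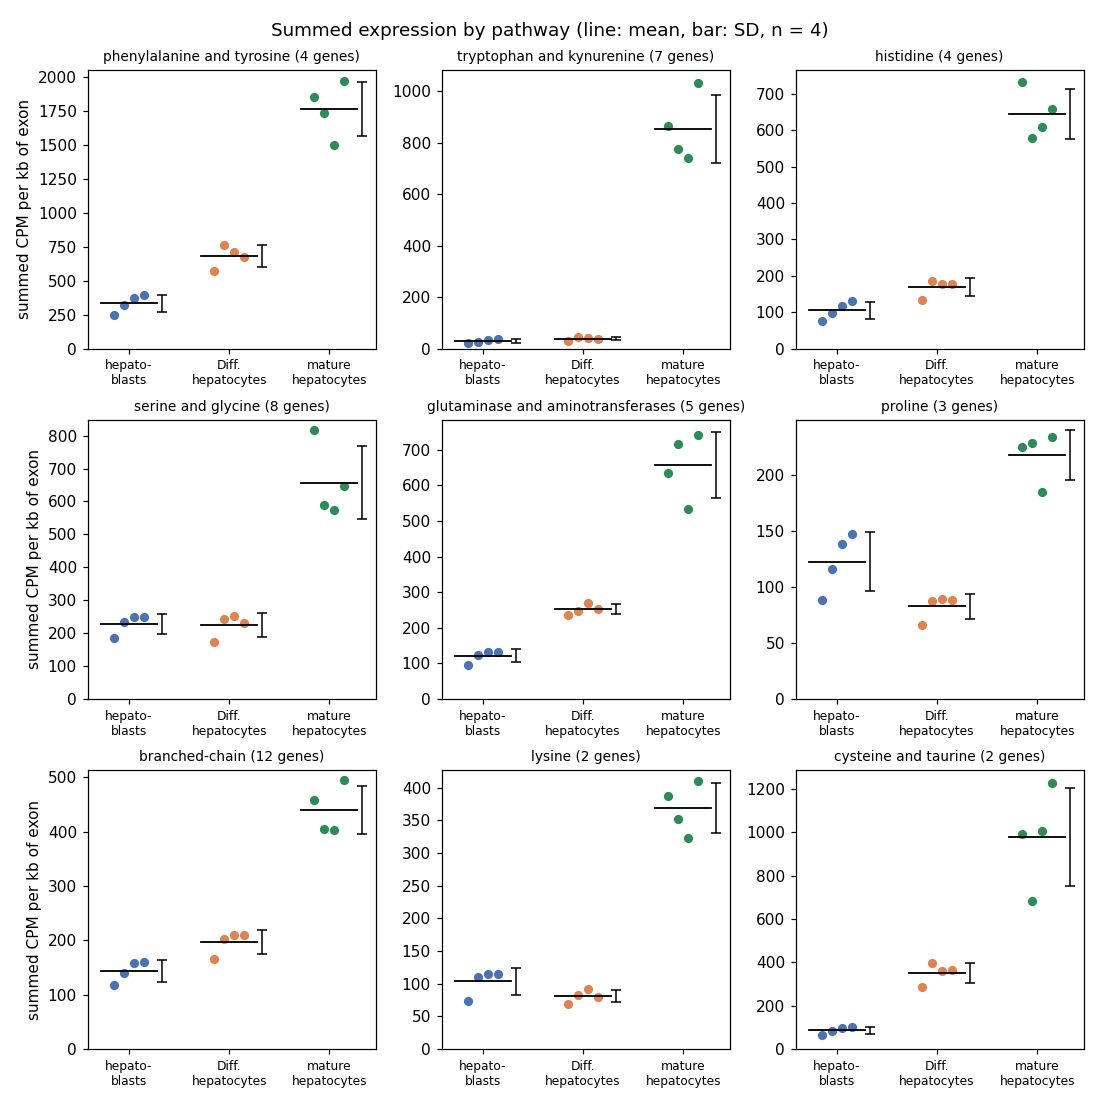
Sum of CPM per kilobase of exon over the members of each of the 9 pathways, with 1 point per library, a line at the mean and a bar for the SD (n = 4), on axes that start at 0. With TMM factors, mature hepatocytes are highest in every panel. Diff. hepatocytes lie above hepatoblasts for phenylalanine and tyrosine, histidine, glutaminase and aminotransferase, branched-chain, and cysteine and taurine genes. The mean of Diff. hepatocytes is lower than that of hepatoblasts for proline and lysine genes. No panel is drawn without these factors.

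Isozymes, subunits and the dehydrogenases Prodh2 and Prodh were also compared as count ratios within a library, which do not depend on how libraries are scaled. Over 13 pairs and 3 comparisons, 30 of 39 exact permutation tests, each on both sides, had an adjusted p under 0.05, and 0.0286 is the smallest p that 4 libraries against 4 allow (0.0371 after adjustment over the 39 tests).

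The aminotransferases changed toward the cytosolic form to different degrees. The log2 ratio of Got1 to Got2 was −3.23 ± 0.12 in hepatoblasts, −0.33 ± 0.06 in the Diff. hepatocytes and 0.21 ± 0.45 in mature hepatocytes (SD, n = 4), so the cultured cells differed from the mature cells by −0.54. For Gpt to Gpt2 the values were −4.38 ± 0.21, −3.68 ± 0.20 and −0.53 ± 0.28, and here the cultured cells lay nearer to the hepatoblasts. Sds to Sdsl went from −3.72 ± 0.65 through −1.23 ± 0.37 to 3.09 ± 0.27. Prodh2 to Prodh, which act on hydroxyproline and proline, moved the other way, from 5.04 ± 0.49 through 1.70 ± 0.04 to 0.34 ± 0.14. Each of these 12 differences reached the smallest p.

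Among subunits, Bckdha to Bckdhb was −1.44 ± 0.18 in hepatoblasts and 0.71 ± 0.18 in Diff. hepatocytes, and Diff. hepatocytes were not distinguished from mature hepatocytes (0.59 ± 0.25, exact permutation p = 0.571). Amt to Gldc was −2.19 ± 0.07 in hepatoblasts, −5.13 ± 0.06 in the Diff. hepatocytes and −1.60 ± 0.26 in mature hepatocytes, with every group apart from the others. By contrast, Dbt to Bckdhb and Pcca to Pccb did not pass between hepatoblasts and Diff. hepatocytes (exact permutation p = 0.971 and 0.800). Both pairs differed between Diff. hepatocytes and mature hepatocytes, by 0.52 and 0.59 on the log2 scale and without overlap. Mccc1 to Mccc2 was −0.19 ± 0.07, 0.04 ± 0.07 and −0.29 ± 0.06 in the 3 groups, with the Diff. hepatocytes apart from both others. The ratio of Tdo2 to Ido2 passed in no comparison, with few Ido2 counts in both embryonic groups.

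**Figure D5:**
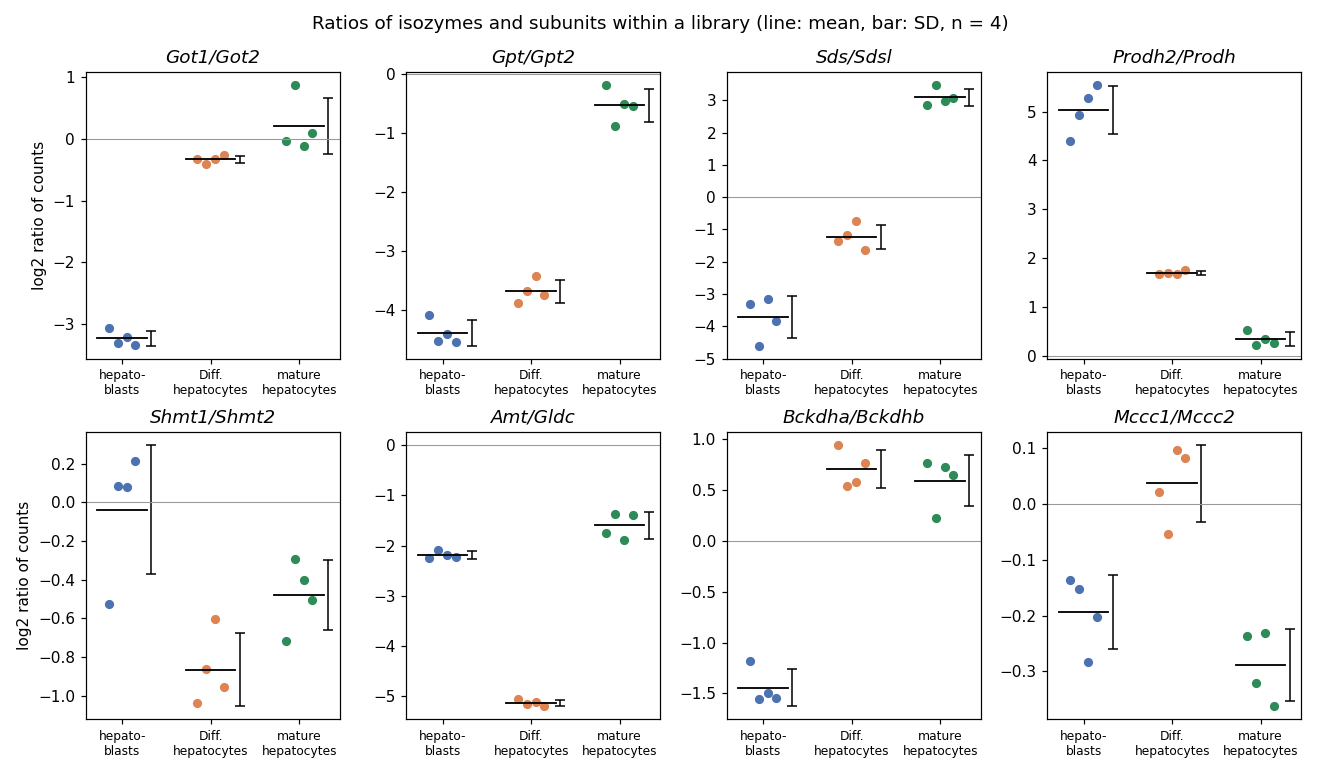
Log2 ratios of counts within each library for 8 pairs of isozymes, subunits or, for Prodh2/Prodh, dehydrogenases of different substrates. Each panel has 1 point per library, a line at the mean and a bar for the SD (n = 4). Axes differ between panels and the gray line marks equal counts. Sds/Sdsl climbs from −3.72 to 3.09 on average, Prodh2/Prodh declines, and Amt/Gldc is lowest in the 4 Diff. hepatocyte libraries.

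Beside the members, 49 other genes of the same pathways were named, of which 47 were tested. In culture 10 of them were called higher and 4 lower, beside 14.9% and 14.0% of all genes. In mature hepatocytes 34 were higher and 1 lower than in hepatoblasts, beside 20.1% and 24.7%. In Diff. hepatocytes 2 were higher and 28 lower than in mature hepatocytes, beside 20.2% and 15.6%. The median log2 fold changes were 0.17, 1.70 and −1.28. Tat, the tyrosine aminotransferase that feeds Hpd, had 520.2, 849, 798 and 732 CPM in the Diff. hepatocytes against 2.03 to 2.62 CPM in hepatoblasts, a log2 fold change of 8.28 ± 0.20. Oat, the ornithine aminotransferase, stood at 38.1 to 66.2 CPM in hepatoblasts and 41.8 to 58.2 CPM in the Diff. hepatocytes, and at 578 to 1407 CPM in mature hepatocytes. Kyat1, a kynurenine aminotransferase, was higher in Diff. hepatocytes than in both other groups (log2 fold changes 3.40 ± 0.16 and 1.10 ± 0.14). Glud1, the glutamate dehydrogenase, fell in culture (−1.59 ± 0.16).

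Genes of amino acid synthesis and uptake were set beside the breakdown genes. Of 9 synthesis genes, 0 rose and 3 fell in culture, beside 14.9% and 14.0% of all genes. In mature hepatocytes against hepatoblasts 0 rose and 7 fell, beside 20.1% and 24.7%. In Diff. hepatocytes 6 were higher and 1 lower than in mature hepatocytes, beside 20.2% and 15.6%. At an unadjusted p under 0.05 in the edgeR fit, 0 were higher in culture and 1 was higher in mature hepatocytes. Phgdh, the first enzyme of serine synthesis, had 345 CPM on average in hepatoblasts, 75.9 CPM in the Diff. hepatocytes and 0.806 CPM in mature hepatocytes, and Psat1, the following enzyme, had 570.02, 541 and 3.96 CPM. Of 11 transporters, 4 rose and 2 fell in culture, beside 14.9% and 14.0% of all genes, and 4 rose and 5 fell in mature hepatocytes, beside 20.1% and 24.7%. Against mature hepatocytes, 6 were higher and 3 lower in Diff. hepatocytes, beside 20.2% and 15.6%. Slc38a3, a glutamine carrier of the adult liver, rose by 3.20 ± 0.23 and 5.27 ± 0.25 on the log2 scale in culture and in mature hepatocytes. Slc38a1 and Slc7a5, carriers of proliferating cells, were not called in culture (0.70 ± 0.33 and −0.51 ± 0.22) and were lower in mature hepatocytes by log2 fold changes of −5.19 ± 0.46 and −3.65 ± 0.26.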

How the data were processed

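Poly(A) RNA of 12 libraries was sequenced as single 75-base reads. Per the submitters' processing notes and the study's methods, the authors checked reads with FastQC 0.11.2, aligned them to GRCm38 (Ensembl annotation) with STAR 2.5.2b, used Picard 2.10.2 and tested with DESeq2 1.22.2. The deposited files hold raw, whole-number gene counts without normalization, and which strand setting they come from is not given in the sources used here. The library preparation is called strand-specific, so opposite-strand overlaps matter only if strand was ignored.

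The 47 genes and all gene lists were chosen with earlier results of these data known, and give no independent support. Gene names came from GENCODE M21 for 53620 of 53715 identifiers. Groups came from the sample labels, with 4 libraries each. Whether the labelled biological replicates came from separate isolations is taken from the study, and p-values measure the spread between these libraries. Replicates differed by more than sampling noise (chi-square per gene 6.43 to 99.2). The 17779 genes that exceeded 10 counts in a library were fitted over all 12 libraries with TMM factors and edgeR's quasi-likelihood test (edgeR 4.0.16, limma 3.58.1, R 4.3.3), with Benjamini-Hochberg adjustment over all tested genes. Standard errors are the log2 fold change divided by the root of F. CPM uses TMM-scaled totals, and per-kilobase levels divide by exon length. In simulated counts for Diff. hepatocytes against hepatoblasts (16777 genes), 194 of 200 genes changed by a log2 fold of 2 were called, with 3 unchanged genes. The changed genes were drawn above a minimum level. Changes near the fold change threshold or at lower levels were not simulated. Far fewer genes were changed than were called in the data, so the simulation does not bear on the choice of scaling. Ratios within a library used log2 counts plus 0.5 and exact permutation over 70 assignments. Count ratio intervals are exact at 95% and cover counting error only.

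Values in every library are given for members among the 3 largest called changes per direction with a mean of at least 10 CPM in the higher group, for pairs whose ratio changed most, and for members called in opposite directions against hepatoblasts. Others were named as their pathway was described. Alternatives were library totals, DESeq2 size factors, DESeq2 1.42.0, low-count filters, a fold change threshold inside the test, an adjusted p under 0.05, the 8 libraries of a comparison, a replicate block, each library left out, and a pseudocount of 2. Leaving out both libraries that stood apart, and the same alternatives for the other lists, were chosen after seeing the data. Promoters were read from RefSeq (GRCm38.p6). No sequence of Cdo1 is shown. The ratio of 1 of the 13 pairs is not reported here.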

Additional observations from a re-analysis of the deposited data

Results flagged for a closer look

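In 8 of 141 groups of 4 libraries, 1 library lay further from the others than Dixon's 95% limit, when chance gives about 1 in 20, or 7.05 groups. Diff. hepatocyte replicate 1 accounted for 3 of them, with 38.7 CPM of Prodh and 125 CPM of Prodh2, both the lowest of their group, and 4.71 CPM of Bcat1, the highest. Hepatoblast replicate 1 accounted for 2, the lowest values of Amt at 52.0 CPM and of Aass at 147 CPM. The others were Gpt at 40.1 CPM in Diff. hepatocyte replicate 3, Bcat2 at 29.7 CPM in mature hepatocyte replicate 1, and Ido2 at 0.0648 CPM in hepatoblast replicate 3, which rests on 2 counts. Hepatoblast replicate 1 and Diff. hepatocyte replicate 1 also had more RNA of several other cell types than their replicates. The part of those cells in these values was not tested.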

How the results depend on the processing

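Of the counts of called genes, 406 of the recomputed values stayed within 1.5 times the reported ones and 27 did not. With library totals 3 members were called lower in mature hepatocytes than in hepatoblasts and 2 were called higher in culture than in the mature cells, and of the other breakdown genes 8 were lower in culture, 21 higher and 5 lower in mature hepatocytes. With an adjusted p under 0.05 and no fold change threshold, 11 members were lower in culture and 2 were higher in culture than in the mature cells. The same threshold gave 20 higher and 11 lower in culture, 5 lower in mature hepatocytes and 4 higher against them among the other breakdown genes. Among synthesis genes it gave 5 lower in culture, 1 higher in mature hepatocytes and 2 lower against them, and among transporters 4 lower in culture and 5 lower against mature hepatocytes. With the threshold inside the test (glmTreat), 16 members were higher and 4 lower in culture, 31 higher in mature hepatocytes and 25 lower against them. There, 6 other breakdown genes were higher in culture and 1 was higher against mature hepatocytes, and 1 synthesis gene and 1 transporter were lower in culture. Other breakdown genes lower in mature hepatocytes than in hepatoblasts numbered 2 with genes of at least 1 count, 2 without both libraries that stood apart, and 1 to 3 with 1 library left out. Leaving out 1 library gave 1 to 2 members higher in culture than in the mature cells (2 without mature hepatocyte replicate 1) and 0 to 1 synthesis genes higher in mature hepatocytes. For the other counts of members the range was 21 to 22 higher and 5 to 6 lower in culture, 33 to 35 higher in mature hepatocytes, and 33 to 38 lower against them.

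Log2 fold changes that changed sign with library totals were, in culture, Hgd −0.07345, Afmid −0.03896, Kmo −0.0586, Gldc −0.103 and Ivd −0.3085. In mature hepatocytes against hepatoblasts they were Pcbd1 −0.38, Shmt1 −0.59, Shmt2 −0.16, Prodh2 −0.22, Aldh4a1 −0.20, Dbt −0.39 and Aass −0.0583, and against mature hepatocytes Acmsd 0.31 and Got2 0.0727. Ivd in culture was also −0.01842 with genes of at least 1 count, −0.00198 with 8 libraries and −0.009845 without both libraries that stood apart, where Bcat2 was 0.0908. With 1 library left out, Ivd ranged from −0.09039 to 0.08868, Bcat2 from −0.188 to 0.0213 and Bckdhb from −0.190 to 0.0187 in culture, and Amt from −0.273 to 0.0896 in mature hepatocytes. Differences of log2 ratios ranged from −0.0674 to 0.0369 for Dbt to Bckdhb and −0.0726 to 0.0307 for Pcca to Pccb in culture, and from −0.379 to 0.136 for Tdo2 to Ido2 and −0.00728 to 0.174 for Bckdha to Bckdhb against mature hepatocytes. With a pseudocount of 2 the Tdo2 to Ido2 differences were 0.13 in culture and 0.97 in mature hepatocytes. None of these had been called, though Shmt2, Aass, Prodh2, Aldh4a1 and Pcbd1 in mature hepatocytes and Got2 against them had an adjusted p below 0.01 in the edgeR fit and missed the fold change threshold. The cause was not tested.

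With the replicate block, 21 members were higher and 6 lower in culture, 34 higher and 0 lower in mature hepatocytes, and 1 higher and 35 lower against them. Of all 17779 tested genes, 2651 and 2569, 3611 and 4377, and 3578 and 2781 were then called. Replicate numbers were used as a block only as an alternative. The replicate numbers were not taken as pairs. Between hepatoblasts and Diff. hepatocytes the correlations of same-numbered deviations were 0.324, −0.0589, 0.246 and 0.184, against −0.352 to 0.243 for different numbers, so 3 of 4 were above 0.1 and not every library correlated best with its own number. With mature hepatocytes they ran from −0.0813 to 0.0923. Depth limits Ido2 and Bcat1, which had 3 counts or fewer in most embryonic or mature libraries, respectively.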
